A study of Mus musculus with 6 samples.

Results

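Chaperones are proteins that help other proteins fold and keep them from clumping. The genes described here are 8 mouse chaperone genes, namely Calr, Canx, Hsp90b1 and Hspa5 of the endoplasmic reticulum (ER), Hsp90ab1, Hsp90aa1 and Hspa8 of the cytosol, and the small heat shock protein gene Hspb7. They were taken from a table of RNA sites (peaks) tested for recovery with an antibody against the RNA-binding protein ZFP36L2, by keeping each peak that carries 1 of the 8 gene names. This gave 43 of 55449 peaks, in 7 of 10818 gene names, since Hsp90b1 had 0 peaks and was not tested. The genes were chosen by their deposited log2 fold changes and adjusted p-values in this table, seen in earlier work on it, so those values and the calls made from them are a description, with no test of their own.

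The ER genes make up a folding line for proteins on their way out of the cell. Calnexin and calreticulin hold freshly made glycoproteins by their sugar chains, BiP (from Hspa5) binds exposed hydrophobic stretches, and the ER form of HSP90 (from Hsp90b1) finishes selected clients. In the cytosol, HSC70 (from Hspa8) passes clients to HSP90, and in hormone-responsive cells both hold steroid hormone receptors in a state that can bind hormone. ZFP36L2 is a zinc finger protein known for binding AU-rich elements, mostly in 3′ untranslated regions (UTRs), and for speeding mRNA decay.

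The data came from eCLIP, in which ultraviolet light ties proteins to the RNA they touch before an antibody pulls them down. The cells were MLTC-1, a line from a mouse tumour of testicular Leydig cells, which normally make testosterone. They were crosslinked at 254 nm with 400 mJ/cm2 and were otherwise untreated as far as the labels say. There were 2 libraries from an antibody against ZFP36L2 (ab70775), 1 library from rabbit IgG (ab313801), 2 inputs of the ZFP36L2 libraries and 1 input of the IgG library, all of the same cell line. The deposited table gives each peak 1 log2 fold change (log2FC) of ZFP36L2 over IgG, a direction taken from the table's name, and 1 adjusted p. It holds no values of single libraries, so levels by sample, their spread and the sequencing depth cannot be shown, and the lone IgG library gives that arm no spread of its own. A peak is called enriched here at an adjusted p under 0.05 and a log2FC of 1 or more, and depleted at the same p and -1 or less.

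Of the 43 chaperone peaks, 24 (55.8%) were enriched by the values of the authors' deposited table, against 2.22% of all peaks. None was depleted, against 5.44% of all peaks. At an unadjusted p under 0.05, 0 of the 43 were lower, against 6189 of all 55449. At that p 27 of the 43 were higher, 3 more than were called, against 1630 of all 55449. These counts rest on the same comparison by which the genes were chosen. The 24 enriched peaks lay in 4 of the 7 genes, 12 in Canx and 4 each in Calr, Hsp90ab1 and Hspb7. Over all genes, 5.04% had an enriched peak. A gene with more peaks has more chances of a call, and Canx had 14 and Hspb7 15. By transcript region, 16 of the 24 coding peaks were enriched (2.35% of all coding peaks were), as were 4 of 5 intronic peaks (2.17% of all), 3 of 11 3′ UTR peaks (1.46%) and the only 5′ UTR peak (3.18%). The 43 peaks had a median log2FC of 1.72 in the values of the authors' deposited table, against -1.06 over all peaks, and 35 lay above 0. Many of them are slices of the same site, as 25 touched another peak of their gene. Joined, the 43 peaks formed 27 stretches, of which 12 held an enriched peak.

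**Figure D1:**
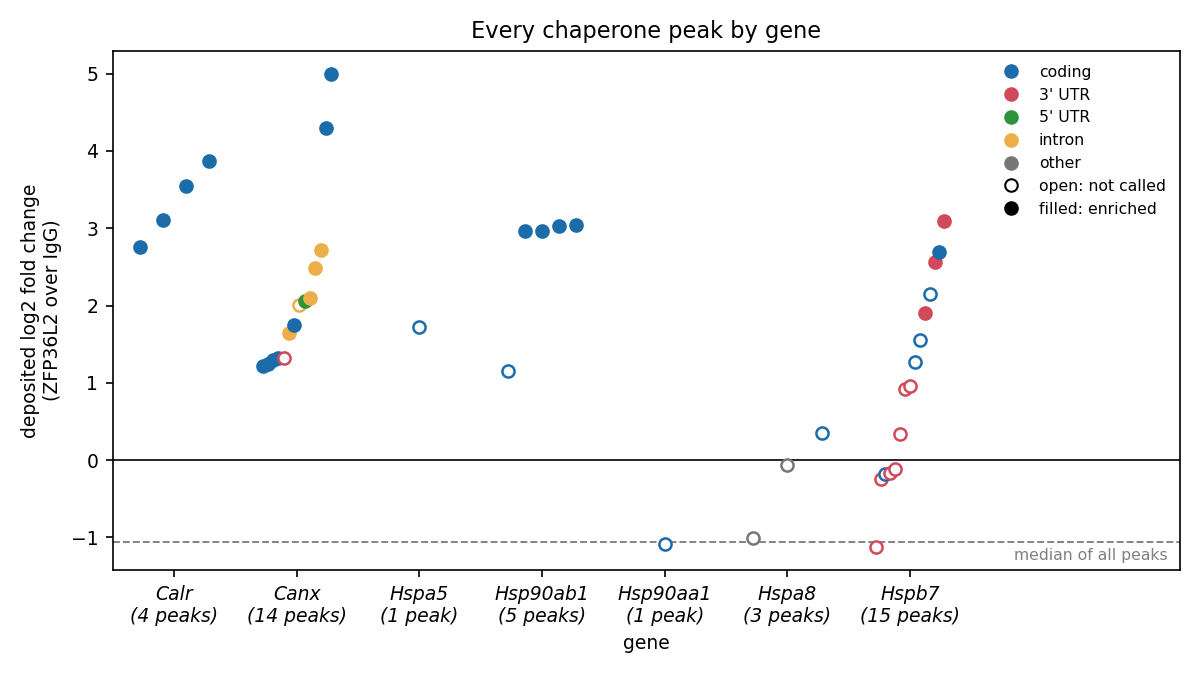
Deposited log2 fold change (log2FC) of ZFP36L2 over IgG (vertical axis) for each of the 43 peaks, by gene (horizontal axis, ER genes at the left). Each point is a peak, coloured by transcript region and filled where enriched, and within a gene points are spread sideways by value only. All 4 Calr points are filled, the Canx points range from 1.22 to 4.99, and Hspb7 runs from -1.12 to 3.09, while the dashed line marks the median of all peaks at -1.06.

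Calr encodes calreticulin, the soluble lectin of the ER lumen, whose acidic C-terminal part stores calcium. All 4 of its peaks were coding and enriched, and they formed a pair of sites near the 3′ end of the gene, which RefSeq places at 84842088 to 84846931 on chromosome 8 (build mm10, minus strand). The upstream site covered 32 nucleotides (84842944 to 84842975) in 3 touching peaks, with log2FCs of 3.55 (27 nucleotides, adjusted p = 6.6e-70), 3.11 (3 nucleotides, adjusted p = 1.3e-45) and 3.87 (2 nucleotides, adjusted p = 5.9e-48) by the authors' deposited table. The downstream site, 98 nucleotides further on at 84842811 to 84842845, had a log2FC of 2.76 (adjusted p = 1.9e-35) as listed in the authors' deposited table. Both sites together spanned 165 nucleotides of a gene of 4844 nucleotides, and the rest of the transcript, UTRs included, had no tested peak. Of all coding peaks, 1.55% had a log2FC at least as high as the lower site and 0.907% at least as high as the 27-nucleotide peak. Which part of the protein these nucleotides encode was not tested.

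A copy of the gene, listed as Calr-ps on chromosome 2, had 1 tested peak as well. It lay on the minus strand at 140955990 to 140956002, in the region class other, with a log2FC of 3.96 (adjusted p = 9.8e-26) by the authors' deposited table. That value is close to the highest Calr value, 3.87. How reads that fit both Calr and a near-identical copy were shared out is not stated in the sources at hand, so the split between them is uncertain.

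Canx encodes calnexin, the membrane-bound partner of calreticulin. It had 14 peaks, all above 0, with log2FCs from 1.22 to 4.99 and a median of 1.88 by the authors' deposited table. Of these, 12 were enriched, 7 of 7 coding, 4 of 5 intronic and 1 of 1 in the 5′ UTR, while the 3′ UTR peak was not called. RefSeq places the gene at 50293957 to 50325673 on chromosome 11 (minus strand). The highest values came from 1 coding site of 43 nucleotides at 50299137 to 50299179. Its upstream peak had a log2FC of 4.99 (30 nucleotides, adjusted p = 3.7e-29) and its downstream peak 4.29 (13 nucleotides, adjusted p = 2.5e-20) as listed in the authors' deposited table. The value of 4.99 was the highest of all 43 chaperone peaks, and 0.171% of all coding peaks were as high or higher.

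A second Canx site was wider and lower. It covered 119 nucleotides at 50297267 to 50297385 in 6 touching peaks, 5 coding and 1 intronic, all of them enriched. The log2FCs, in the direction of transcription, were 1.75, 1.32, 1.30, 1.22 and 1.24 in the coding peaks and 1.64 in the intronic one, as listed in the authors' deposited table, with adjusted p from 3.5e-16 to 3.9e-08. All 6 stood below both peaks of the 43-nucleotide site. The intronic piece is 3 nucleotides long and directly follows the coding part.

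Apart from the 3′ UTR peak, the other Canx peaks lay far upstream of these. The 5′ UTR peak began 110 nucleotides after the RefSeq start of the gene, at 50325494 to 50325563, and had a log2FC of 2.06 (adjusted p = 1.3e-05) by the authors' deposited table. Intronic peaks between 5941 and 7841 nucleotides from the start had 2.10, 2.01, 2.48 and 2.72 as listed in the authors' deposited table, of which the second was not called. That peak, at 50319674 to 50319687, was just outside the threshold (adjusted p = 0.058), and its neighbour at 50319688 to 50319732 was just inside it (adjusted p = 0.026), as listed in the authors' deposited table. The 3′ UTR peak, 2 nucleotides long, had 1.32 (adjusted p = 0.63) by the authors' deposited table.

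**Figure D2:**
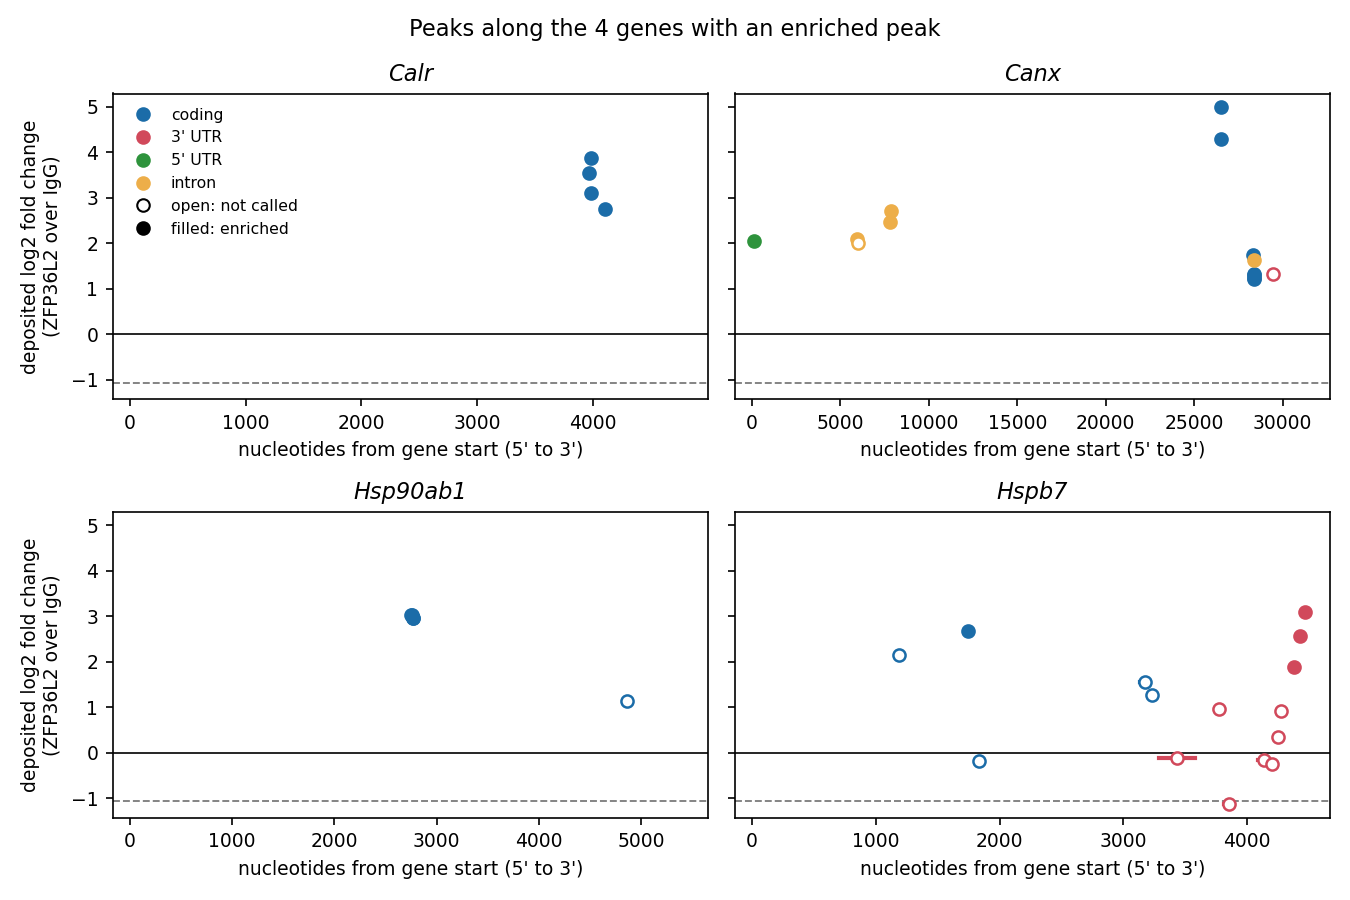
Peaks along the 4 genes with an enriched peak, with nucleotides from the RefSeq gene start on the horizontal axis (introns included) and the deposited log2FC of ZFP36L2 over IgG on the vertical axis. Each point is the middle of a peak, a bar gives its length where longer than the point, filled points are enriched, and the dashed line is the median of all peaks (-1.06). Calr peaks sit together from 3956 nucleotides on, the enriched Hsp90ab1 peaks from 2740 on, and the 3 enriched 3′ UTR peaks of Hspb7 are at the far end of the gene.

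Hspa5 encodes BiP, the ER member of the HSP70 family and a standard marker of ER stress. Its only peak was coding, at 34774757 to 34774769 on chromosome 2, with a log2FC of 1.72 that was not called (adjusted p = 0.60, unadjusted p = 0.11) as listed in the authors' deposited table. A value that high was reached by 3.64% of all coding peaks. The ER genes thus comprised Calr with 4 of 4 peaks enriched, Canx with 12 of 14, Hspa5 with 0 of 1, and Hsp90b1 with no tested peak.

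Hsp90ab1 encodes HSP90 beta, the constitutive cytosolic form. Its enriched peaks were 4 slices of 1 coding site, and they hardly differed among themselves. The log2FCs were 3.03, 3.04, 2.97 and 2.96 in the direction of transcription, as listed in the authors' deposited table, with adjusted p from 2.8e-49 to 2.5e-42. The site covered 31 nucleotides, from 45570491 to 45570521 on chromosome 17 (minus strand), about midway through a gene of 5484 nucleotides, 2740 nucleotides from its start and 2713 from its end. The remaining peak was also coding, 14 nucleotides long and 619 nucleotides from the end of the gene, with 1.15 (adjusted p = 0.35, unadjusted p = 0.049) by the authors' deposited table, and was not called.

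Hsp90aa1 encodes HSP90 alpha, the stress-inducible form of the same protein. It had 1 peak, coding, at 110695636 to 110695690 on chromosome 12, with a log2FC of -1.08 (adjusted p = 1) as listed in the authors' deposited table. An adjusted p of 1 stands for a listed −log10 value that rounds to 0. The value is next to the median of all peaks, -1.06. With no library values, the difference between the Hsp90ab1 and Hsp90aa1 peaks was not tested.

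Hspa8 encodes HSC70, the constitutive HSP70 of the cytosol. None of its 3 peaks was called, and at an unadjusted p under 0.05 there were also 0. The coding peak had a log2FC of 0.35 (adjusted p = 1) by the authors' deposited table, lower than the coding peaks of Calr, Canx and Hsp90ab1. The other pair, of the class other, had -1.01 and -0.06 by the authors' deposited table and carried the Hspa8 name although they began 2263 nucleotides past the end of the gene in RefSeq. RefSeq also has small nucleolar RNA genes inside the span of Hspa8, and 0 peaks there bore another name.

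Hspb7 encodes a small heat shock protein known mainly from heart and skeletal muscle, where it associates with the cytoskeleton. Its 15 peaks covered 968 nucleotides and were of both signs, from -1.12 to 3.09 with a median of 0.96 as listed in the authors' deposited table, and 4 were enriched. Of its 5 coding peaks 1 was enriched, at 141422501 to 141422547 on chromosome 4, with a log2FC of 2.69 (adjusted p = 7.8e-05) by the authors' deposited table. The next coding peak downstream, 44 nucleotides long, had -0.18 (adjusted p = 1), and the first one had 2.15 (adjusted p = 0.22), by the authors' deposited table.

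The other 3 enriched Hspb7 peaks were the last ones of its 3′ UTR. They began within 188 nucleotides of the end of the gene. In the direction of transcription they had log2FCs of 1.90 (adjusted p = 0.011), 2.56 (adjusted p = 0.021) and 3.09 (adjusted p = 7.4e-06) as listed in the authors' deposited table. The 7 other 3′ UTR peaks began 266 to 1246 nucleotides before the end and had values from -1.12 to 0.96 with a median of -0.12 by the authors' deposited table. The enriched and the uncalled 3′ UTR peaks did not overlap in value. The calls rest on these same values, so this separation is no test. Of all 3′ UTR peaks in the table, 1.46% were enriched.

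Other genes of heart muscle had peaks in the same data. Of 28 listed markers, 25 had a tested peak, and Myl4, Myl7 and Tbx5 had none. Of their 990 peaks, 52 (5.25%) were enriched, against 2.22% of all peaks, and 3 (0.303%) were depleted, against 5.44%, by the authors' deposited table. The enriched ones lay in 13 of the 25 genes (52.0%), against 5.04% of all genes, and the median log2FC was 0.28 against -1.06 over all peaks. A gene with more peaks has more chances of a call, so these gene shares are not on a like basis. The 25 genes held 990 peaks, while all 10818 gene names held 55449. Most of the 990 peaks came from Ttn, with 566 (18 enriched, median 0.27), and Ryr2, with 117 (12 enriched, median 0.28). The pooled shares and median thus mainly describe those long transcripts. The genes differed widely, as a pair named here after their values were seen shows. Xirp1, an actin-binding repeat protein, held the highest peak of the list at 4.80 with a gene median of 0.24, while the 5 peaks of Nkx2-5, a cardiac transcription factor, lay from -2.55 to -1.66 with no call, by the authors' deposited table. The table gives no level of these RNAs in any library. All libraries are labelled as the same cell line, and from which cells these RNAs came was not tested. Their part in the Hspb7 values was not tested either. Of 14 Leydig cell markers, 10 had a tested peak, while Cyp17a1, Insl3, Hsd3b1 and Hsd3b6 had none. Of their 120 peaks, 35 (29.2%) were enriched, in 3 genes, and 1 was depleted, with a median of 0.39 by the authors' deposited table. Cyp11a1, the enzyme that opens steroid synthesis, held 33 of the 35, and the 3 peaks of Star, which carries cholesterol into mitochondria, were not called. A peak does not give an expression level, so these counts only say where RNA was tested.

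The coding peaks of the chaperone genes were set against all 20515 coding peaks, whose median log2FC was -0.72 as listed in the authors' deposited table. The 24 chaperone coding peaks had a median of 1.95 there, and only those of Hsp90aa1 (-1.08) and the lowest of Hspb7 (-0.18) were below 0. The Calr peaks, the 43-nucleotide Canx site, the 31-nucleotide Hsp90ab1 site and 1 Hspb7 peak had values from 2.69 to 4.99, and all other coding peaks of the 7 genes were at 2.15 or lower.

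**Figure D3:**
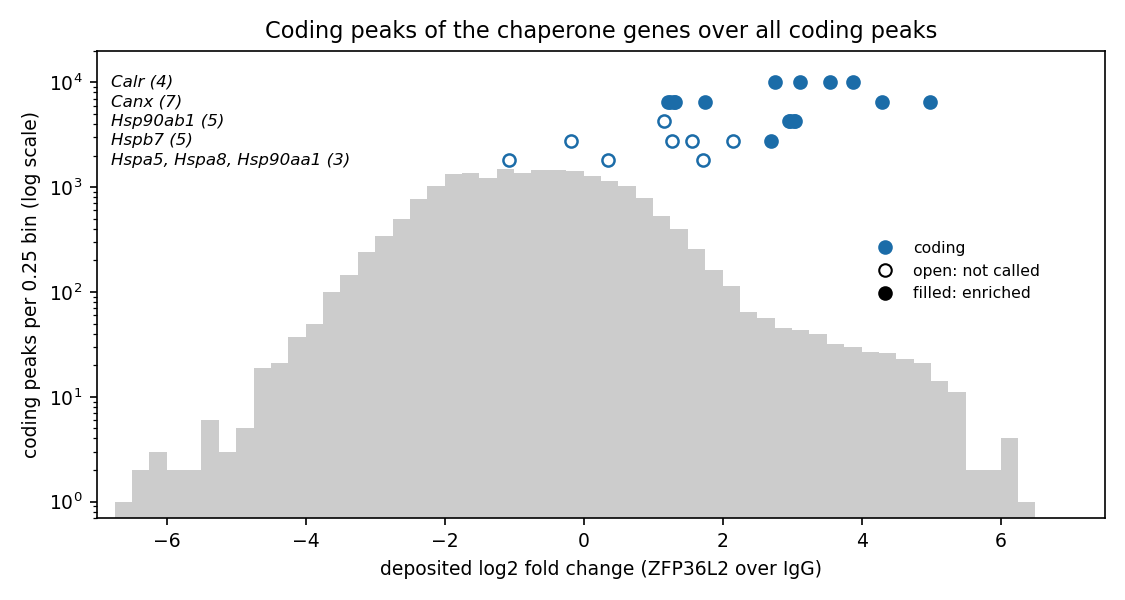
Histogram of the deposited log2FC of ZFP36L2 over IgG for all 20515 coding peaks (grey, counts on a log scale), with the 24 coding peaks of the chaperone genes as points above it. The rows of points are genes and their height has no meaning, and filled points are enriched. Points of Calr, Hsp90ab1 and the upper Canx site stand in the right tail, at 2.76 or higher apart from the lone open Hsp90ab1 point at 1.15.

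The measure of likeness was the share of a gene's peaks that were both coding and enriched, over genes with at least 4 peaks. A share of 75% or more was found in 6 of 4887 such genes (0.123%), and Calr (100%) and Hsp90ab1 (80%) were among them. The others were Cdk11b, a kinase gene, Hmgn5, which encodes a nucleosome-binding protein, Anp32b, which encodes a nuclear phosphoprotein, and Ncl, which encodes nucleolin, each with a share of 100%. Their median log2FCs by the authors' deposited table were 3.23 over 8 peaks for Cdk11b, 2.18 over 8 peaks for Hmgn5, 1.86 over 14 peaks for Anp32b and 1.98 over 4 peaks for Ncl, against 3.33 for Calr and 2.97 for Hsp90ab1. The share is built from the same values by which Calr and Hsp90ab1 were chosen. Their place among the 6 is therefore a description and no test. The share also counts touching slices of a site as separate peaks. Joined, the peaks of Calr formed 2 stretches, both enriched, those of Hsp90ab1 2, of which 1 was enriched, those of Hmgn5 3 and those of Ncl 1, so these genes would not reach the minimum of 4.

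The rest of the chaperone network was read from 7 lists of 128 further genes drawn up from textbook knowledge. Of these, 96 had a tested peak. By the values in the authors' deposited table, 6 of the 96 (6.25%) had an enriched peak and 15 (15.6%) a depleted one, near the 5.04% and 17.3% over all genes of the table. Their 522 peaks had a median log2FC of -0.68, against -1.06 over all peaks, and 9 of them were enriched and 21 depleted.

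Among the partners of HSP70 and HSP90, 2 of 21 tested genes (9.52%) had an enriched peak and 2 (9.52%) a depleted one. Over all genes the shares were 5.04% and 17.3%. Nudc, which encodes an HSP90 cochaperone that is also needed for nuclear movement, was enriched in 4 of 4 peaks. Its coding peaks had log2FCs of 5.22 (adjusted p = 5.0e-23) and 4.59 (adjusted p = 1.5e-09), and its intronic peaks 3.03 and 3.02, by the authors' deposited table. Fkbp4, the FKBP52 immunophilin that acts with HSP90 on steroid receptors, had 1 of 6 peaks enriched, a coding one at 4.38 (adjusted p = 8.3e-12) as listed in the authors' deposited table. Its other 5 peaks lay between -0.76 and 0.97. Sgta, a cochaperone of tail-anchored protein targeting, had 4 depleted peaks among 8, the lowest at -4.40 (adjusted p = 8.3e-06), and Hspbp1, a nucleotide exchange factor of HSP70, had 1 among 3, at -3.65, by the authors' deposited table. Fkbp5, the FKBP51 immunophilin, with 17 peaks from -2.49 to 0.84, and Bag6, which acts on misplaced membrane proteins, with 8 peaks and a median of 0.11, were not called.

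Of 20 tested ER folding genes, 2 had an enriched peak and 3 a depleted one. Calu, which encodes the calcium-binding protein calumenin, had 1 intronic peak of 10 enriched, at 2.99 (adjusted p = 2.1e-07), and its 7 3′ UTR peaks, from 0.51 to 1.61, were not called, by the authors' deposited table. Hyou1, the large HSP70-like protein of the ER, had 1 of 8 peaks enriched, in the 3′ UTR at 3.93 (adjusted p = 3.2e-07), while its 7 other peaks were all below 0, as listed in the authors' deposited table. Depleted peaks were found in Txndc5, a protein disulfide isomerase (2 of 6 peaks, down to -3.22), Ganab, the glucosidase II subunit that trims sugars for calnexin binding (1 of 13, -3.28), and Sil1, a BiP exchange factor (1 of 20), by the authors' deposited table. Uggt1, which tags misfolded glycoproteins for another round on calnexin, had 12 peaks with no call, as did Ero1l, an ER oxidase, with 10.

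The remaining HSP70 and HSP90 relatives had no enriched peak in 12 tested genes, against 5.04% of all genes. At an unadjusted p under 0.05, 0 of their 58 peaks were higher, against 1630 of all 55449. With so few genes and peaks, these counts of 0 say little about the list. Depleted peaks occurred in 2 of the 12 genes (16.7%), against 17.3% of all genes. They lay in Hspa12a, a distant HSP70 relative (1 of 11 peaks, -4.20, adjusted p = 6.5e-05), and in Hsph1, the HSP110 exchange factor (1 of 2, -3.65, adjusted p = 0.0015), by the authors' deposited table. Trap1, the mitochondrial HSP90, with 11 peaks between -1.40 and 0.74, and Hspa4, with 9 between -1.81 and 1.30, were not called from the authors' deposited table.

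Of 18 tested J-domain proteins, which stimulate HSP70, 1 (5.56%) had an enriched peak and 3 (16.7%) a depleted one. Over all genes the shares were 5.04% and 17.3%. Dnajc21, a ribosome biogenesis factor, was enriched in 1 coding peak of its 7 peaks (4.40, adjusted p = 1.3e-09), and Dnajc13, Dnajc1 and Dnajb2 were depleted in 2, 2 and 1 peaks, by the authors' deposited table. Dnajc5 and Dnaja2, with 9 and 8 peaks, were not called. The chaperonin and prefoldin list had an enriched peak in 1 of 13 tested genes (7.69%) and a depleted one in 2 (15.4%), against those same 5.04% and 17.3%. The enriched peak was in Cct8, a subunit of the TRiC ring, in 1 coding peak of 7 (4.09, adjusted p = 9.1e-10), and the depleted ones in Cct2 and Cct4, by the authors' deposited table. Cct7 and Cct3, other subunits of the ring, had 10 and 8 peaks with no call.

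Small heat shock proteins other than Hspb7 had a tested peak in 3 of 9 genes, Hspb6, Hspb8 and Cryab. None of their 24 peaks was called from the authors' deposited table, though at an unadjusted p under 0.05 there were 3 higher and 1 lower peaks. Of all 55449 peaks, 1630 were higher and 6189 lower at that p. Hspb6 reached 2.11 in its 3′ UTR (adjusted p = 0.078) and Hspb8 -2.83 in coding sequence (adjusted p = 0.083), by the authors' deposited table. The list of stress response regulators had no tested peak in its heat shock factor genes, Hsf1 and Hsf2. Its 9 tested genes all belong to the unfolded protein and ER stress response. They had no enriched peak, against 5.04% of all genes. At an unadjusted p under 0.05, 0 of their 58 peaks were higher and 10 were lower. Such counts of 0 say little for so few genes and peaks. Depleted peaks occurred in 3 of the 9 (33.3%), against 17.3% of all genes. As a share of peaks this was 5.17%, against 5.44% of all peaks. The 3 genes were Mbtps2, a protease that activates ATF6, Ern1, the IRE1 stress sensor, and Atf6. Each had 1 depleted peak, at -3.16, -3.21 and -2.85 by the authors' deposited table. Mbtps1, with 13 peaks, and Xbp1, with 4, were not called.

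**Figure D4:**
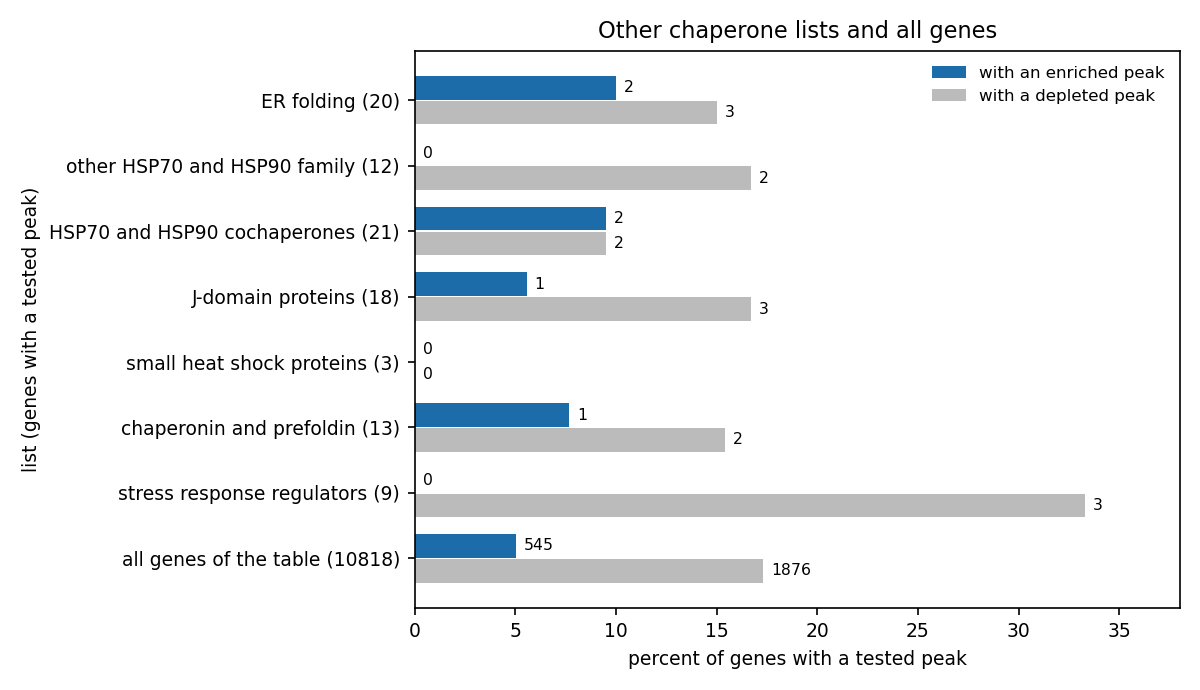
Percent of genes with at least 1 enriched (blue) or depleted (grey) peak in each of the 7 chaperone lists and in all genes of the table (vertical axis, with the number of genes that had a tested peak), with the count of genes beside each bar. Enriched shares run from 0 in 3 lists to 10.0% in the ER folding list, against 5.04% over all genes.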

How the data were processed

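The authors deposited 1 table with 1 row per peak, made from eCLIP libraries of MLTC-1 cells. Its log2 fold change was deposited by the authors as a log2 value of ZFP36L2 over IgG, and its p-value and adjusted p-value as −log10 values, per the file headers, which were converted back here. The submitters' processing notes name UMI-tools 1.1.1, cutadapt 3.2, STAR 2.7.7a, DESeq2 1.34.0 and build mm10, with no role or order. Peak calling, pooling, normalization and the use of the inputs are not stated there, in the labels or in the file. A Benjamini-Hochberg adjustment run here on the p-value column came within 0.0099 (−log10) of each adjusted value. The table has 3 columns of values and none per library, so the depth is unknown and the planned count test was not applicable. Nothing says that libraries came from separate cultures, so any spread behind the p-values may be technical.

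Names were split on the bar character, touching peaks were joined, and positions were counted from the RefSeq gene (GRCm38.p6, the same build), in which all 8 symbols matched. Calls, lists and joining used pandas 2.3.3. The call rule, the name split and the joining were checked on a small hand-written example with known answers. The members, lists and thresholds were chosen with earlier results of these data known. From each list, the rule named up to 4 called genes by adjusted p and up to 2 uncalled genes with the most peaks, along with all 8 members and the genes most like Calr and Hsp90ab1. Cardiomyocyte examples, Sil1, Cryab and Calr-ps were added with their values in view. The genes Zfp36, Zfp36l1 and Zfp36l2 had 0 peaks. The share of acidic codons and motif letters under the peaks were not analysed here.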

Additional observations from a re-analysis of the deposited data

How the results depend on the processing

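The count of 24 enriched chaperone peaks became 21 at an adjusted p under 0.01 and 17 at a minimum log2 fold change of 2. Over all 55449 peaks, the count of 1231 became 1056 and 1128 under the same settings. Centring on the median of all peaks raises every value and so could not remove an enriched peak, and 0 of the chaperone peaks carried several names, so a count of 24 under these settings says nothing about stability. It was 12 when touching peaks were joined, because slices of 1 site then count once. The stricter fold change left 6 Canx and 3 Hspb7 peaks, and the stricter p 11 and 2. Calr and Hsp90ab1 had 4 each under both. Among the 7 other lists, enriched genes numbered 6 under each of the 4 alternatives run, and depleted ones 12 to 15. Centring could not lower the count of 6, so it says nothing about stability there. The stricter thresholds could have lowered it but did not. Each of the 6 genes held a peak at 2.99 or more, with a deposited adjusted p of 3.2e-07 or less. Centring adds 1.06 to each value, which gives medians of 4.39 for Calr, 2.94 for Canx, 4.03 for Hsp90ab1, -0.02 for Hsp90aa1, 2.78 for Hspa5, 1.0 for Hspa8 and 2.02 for Hspb7. With coding peaks only, the medians were 1.32 for Canx, 0.35 for Hspa8 and 1.56 for Hspb7, and were the same for the others. Sequence under widened peaks and fits without a replicate were not run, since they need a genome and library counts. No paired analysis was possible because the table holds no values of single libraries.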

Other observations

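Size and support ranked the chaperone peaks differently in the authors' deposited table. The 27-nucleotide Calr peak was number 20 of all 55449 peaks by adjusted p but number 516 by log2 fold change, and the 18-nucleotide Hsp90ab1 peak was number 50 and number 703. The upper Canx peak was number 105 by adjusted p and number 109 by log2 fold change. The chaperone peaks were also short, with a median of 23 nucleotides against 35 over all peaks, and 7 of the 43 were 5 nucleotides or less. The share of peaks that short over all peaks was not counted. Touching slices of a site, which 25 of the 43 were, count here as separate peaks. The 4 enriched Hsp90ab1 slices, for example, form 1 site of 31 nucleotides.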
